A study of Homo sapiens with 8 samples.

Results

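The glycolysis and hypoxia-response genes described here are 38 of the 36474 genes in the count table. They were chosen by name from the textbook pathway, with earlier results of these data known. They comprise 16 enzymes from hexokinase to lactate dehydrogenase, 3 transporters of glucose or lactate, 4 regulatory kinases, the oxygen-regulated transcription factor subunit HIF1A with 2 of the hydroxylases that mark it for destruction (EGLN1 and EGLN3), and 12 further transcripts known as targets of hypoxia-inducible factor (HIF). All 38 had at least 10 counts in at least 2 libraries, as had 21195 genes of the table, and all 38 were among the 21071 genes tested.

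RNA sequencing was done on LNCaP cells, an established line grown from a metastasis of a human prostate carcinoma, in 8 mRNA libraries. All cells had been starved for 6 to 12 h in medium lacking serum and calcium. The 0 h group (2 libraries) was collected at the start of exposure to recombinant ASPN, also known as asporin, a matrix protein secreted by stromal cells, and the other 2 groups were collected 12 h and 24 h after the protein was given at 100 ng/mL (3 libraries each). The replicates are labelled biological replicates and came from wells of 1 cell line, so p-values measure the spread between such wells. No library kept for 12 or 24 h with buffer alone was analysed here, so the effects of ASPN and of time since the start cannot be told apart in any comparison. The labels name no change of oxygen or of glucose.

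In glycolysis glucose enters through transporters such as SLC2A1, is split and oxidised to pyruvate by a chain of soluble enzymes, and leaves the cell as lactate through carriers such as SLC16A1 and SLC16A3 when pyruvate is not burnt in mitochondria. When oxygen is plentiful, prolyl hydroxylases (the EGLN enzymes) mark HIF1A protein for degradation. When oxygen is low, HIF1A accumulates, pairs with ARNT and switches on most of the genes of glycolysis together with genes for new vessels, pH control, mitophagy and collagen modification, among them the hydroxylase gene EGLN3, which feeds back on the pathway. HIF1A is governed mostly at the level of its protein, which was not measured here, so its transcript need not follow its activity.

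Library totals ran from 73406825 to 96962135 counts. Levels are given as CPM, read counts scaled to a common library size after TMM correction. All 10 markers of luminal prostate cells that were checked, KLK3 and HOXB13 among them, had over 10 counts in every library, and their summed level was 4860 to 4970 CPM at 0 h, 5420 to 5450 at 12 h and 5410 to 5600 at 24 h. Of 8 fibroblast and stromal markers 5 passed that count, and the list summed to 24.0 CPM at 0 h, 23.0 to 25.3 at 12 h and 22.5 to 23.2 at 24 h. Most of that was COL1A1, with means of 19.5, 20.3 and 19.1 CPM. Of 8 immune and endothelial markers 1 passed, VWF, with sums of the list of 15.1 to 17.5, 13.5 to 15.3 and 11.3 to 13.5 CPM. Nearly all of that was VWF (means 16.0, 14.4 and 12.3 CPM). The endothelial markers PECAM1 and CDH5 had at most 2 and 5 counts in any library, and PTPRC at most 7. In bulk libraries, fewer cells of a type and less RNA per cell cannot be told apart. The 0 h libraries stood apart from each other in these genes. Of the 38 members 31 were higher in 0 h replicate 1 than in the second 0 h library (81.6%, beside 51.8% of all genes with counts in both). For the 12 further HIF targets this held for 10, with a median log2 ratio of 0.21, and for the 16 enzymes for 12, with a median of only 0.018. Comparisons with 0 h are therefore also given without each of these libraries where that changed a result.

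Per kilobase of exon, the abundance of the members spanned more than 3 powers of 10. GAPDH, which oxidises glyceraldehyde 3-phosphate, was the most abundant, with a mean of 1614 CPM per kb over the 8 libraries. ENO1, which makes phosphoenolpyruvate, followed at 663 CPM per kb, ahead of DDIT4, a stress-induced inhibitor of mTORC1, at 569.5 CPM per kb, TPI1 (triose phosphate isomerase) at 553 and LDHA (the lactate dehydrogenase subunit that favours lactate) at 518. DDIT4, TPI1 and LDHA lay close together: the group means of DDIT4 ranged from 496 to 617 CPM per kb, those of TPI1 from 515 to 581 and those of LDHA from 485 to 533. The order depends on the length used, that of all annotated exons of a gene merged (2118 bases for DDIT4, 2700 for TPI1 and 6026 for LDHA). In CPM the group means of DDIT4 (1051 to 1307) lay below those of TPI1 (1392 to 1568) and LDHA (2924 to 3212). The 16 enzymes together took 1.70% to 1.76% of all counts at 0 h, 1.97% to 2.07% at 12 h and 1.88% to 2.00% at 24 h, with no overlap between 0 h and either later time.

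Among pathway steps with several isoenzymes, 1 form prevailed for lactate dehydrogenase and aldolase on the scale of CPM per kb, and the forms of phosphofructokinase and hexokinase were of similar abundance. LDHA exceeded its sister subunit LDHB (4.62 CPM per kb) by a wide margin, and ALDOC (132.6 CPM per kb) exceeded ALDOA (15.3 CPM per kb) among the aldolases, which split fructose bisphosphate. Among the subunits of phosphofructokinase, which catalyses the committing step, PFKP (36.4), PFKL (28.6) and PFKM (28.5 CPM per kb) were of similar abundance, as were the hexokinases HK2 (25.3) and HK1 (21.0 CPM per kb), which trap glucose in the cell. These levels carry a limit from the annotation. ALDOA shares 42.8% of its exonic bases with another protein-coding gene on the same strand and LDHB shares 33.4%, and whether reads in shared bases were counted for either gene is not given in the sources used here. If such reads were left out, the levels of ALDOA and LDHB are too low, and the order of ALDOC and ALDOA may not hold.

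At the bottom of the range were SLC16A3, a lactate exporter, at 0.876 CPM per kb, CA9, a cell-surface carbonic anhydrase, at 0.405 and ADM, the precursor of the vessel-dilating peptide adrenomedullin, at 0.256. These are classical HIF targets in other cells. ADM had 31 to 74 counts per library. The counts of CA9 are uncertain because 35.7% of its exonic bases lie opposite exons of ARHGEF39, which had more counts than CA9, and strand handling is not given in the sources used here. The same holds for ANKRD37, a HIF target of unclear function, of whose exonic bases 40.3% lie opposite UFSP2.

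**Figure D1:**
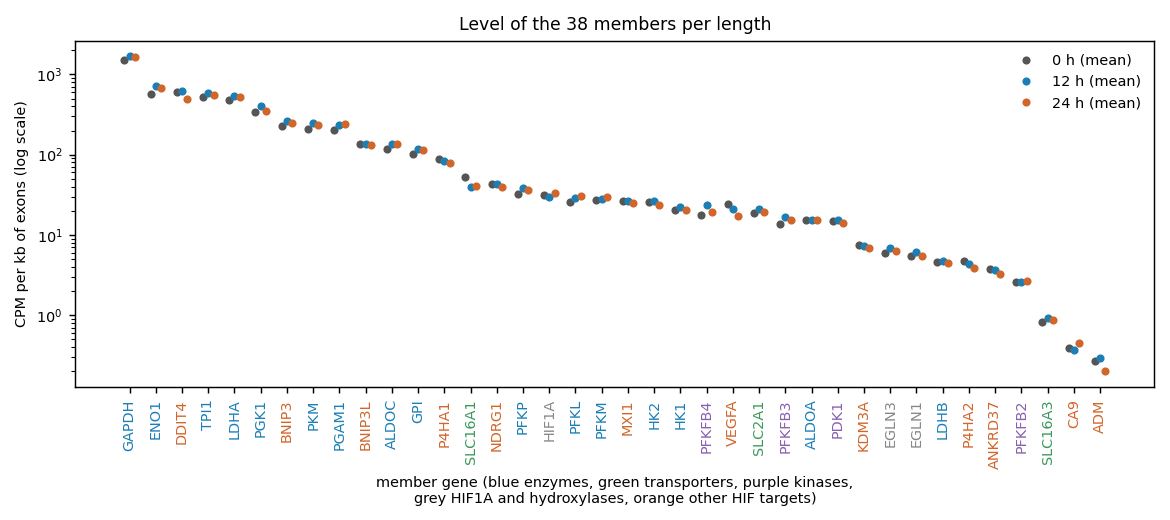
Mean level of each of the 38 members in CPM per kb of exon (y axis, log scale) at 0 h, 12 h and 24 h (points), ordered by the mean of all libraries (x axis). GAPDH heads the order at 1614 and ADM ends it at 0.256 CPM per kb, and the 3 times lie close together for each gene compared with the distance between genes.

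HIF binds DNA at a short core that reads ACGTG or GCGTG. The 250 bases ahead of 1 start per gene were searched for that core, using promoter sequences from RefSeq on GRCh38.p14. Both strands were searched (so also CACGT and CACGC), with overlapping matches such as CACGTG counted as 1. A gene can have several starts, and only the first listed was used. For several members, ENO1, PGK1, PGAM1 and GAPDH among them, the window lies inside the gene as annotated in the count table. Bases ahead of the outermost start of those genes were not searched. Of the 38 members 33 had an entry, and SLC16A1, PFKFB2, BNIP3L, VEGFA and NDRG1 had none. A match was found in 20 of the 33 (60.6%), beside 43.2% of all 35116 promoters of the table, and 8 of the 33 (24.2%) held more than 1 match, beside 16.2% of all promoters. By role, 9 of 16 enzymes, 0 of 2 transporters, 2 of 3 kinases, 2 of 3 genes of HIF1A and its hydroxylases and 7 of 9 further HIF targets held a match. A match describes the letters only.

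The sequences of 6 of them are printed 5′ to 3′ on the gene's own strand, with matches in capitals. They show ENO1, ALDOC and PGK1, enzymes with several matches that rose at 12 h, PGAM1, an enzyme that rose at 12 h and has no match in this window, and the HIF targets BNIP3 and DDIT4, of which DDIT4 fell at 24 h. The count table starts PGAM1 at base 97426191, ahead of this window, so bases before that start were not searched. Their positions on GRCh38.p14 are ENO1 at chr1:8878687-8878936 (minus strand), ALDOC at chr17:28576896-28577145 (minus strand), PGK1 at chrX:78103998-78104247 (plus strand), PGAM1 at chr10:97427568-97427817 (plus strand), BNIP3 at chr10:131981924-131982173 (minus strand) and DDIT4 at chr10:72273674-72273923 (plus strand).
ENO1: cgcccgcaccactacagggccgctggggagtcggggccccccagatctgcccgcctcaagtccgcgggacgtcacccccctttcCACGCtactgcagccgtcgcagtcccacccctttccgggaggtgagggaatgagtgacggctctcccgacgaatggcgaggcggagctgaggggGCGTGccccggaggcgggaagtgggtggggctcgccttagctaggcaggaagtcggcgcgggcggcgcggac
ALDOC: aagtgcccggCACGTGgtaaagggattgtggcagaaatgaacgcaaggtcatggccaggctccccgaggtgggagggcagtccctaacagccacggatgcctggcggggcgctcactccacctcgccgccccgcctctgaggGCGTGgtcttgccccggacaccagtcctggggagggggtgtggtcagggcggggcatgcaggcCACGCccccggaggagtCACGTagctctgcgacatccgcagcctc
PGK1: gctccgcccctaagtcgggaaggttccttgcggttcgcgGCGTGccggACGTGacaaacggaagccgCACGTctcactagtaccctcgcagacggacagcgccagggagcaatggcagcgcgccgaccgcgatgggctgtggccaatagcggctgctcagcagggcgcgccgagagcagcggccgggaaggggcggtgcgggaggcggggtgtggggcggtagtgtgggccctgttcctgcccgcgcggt
PGAM1: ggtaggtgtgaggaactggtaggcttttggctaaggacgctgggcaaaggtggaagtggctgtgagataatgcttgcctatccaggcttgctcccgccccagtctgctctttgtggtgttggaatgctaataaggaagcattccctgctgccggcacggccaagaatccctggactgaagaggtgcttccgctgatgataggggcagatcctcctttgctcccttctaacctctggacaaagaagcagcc
BNIP3: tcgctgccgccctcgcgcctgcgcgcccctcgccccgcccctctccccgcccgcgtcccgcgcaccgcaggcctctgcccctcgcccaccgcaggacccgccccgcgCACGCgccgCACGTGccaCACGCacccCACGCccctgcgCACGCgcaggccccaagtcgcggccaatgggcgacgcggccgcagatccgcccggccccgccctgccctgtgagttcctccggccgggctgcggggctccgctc
DDIT4: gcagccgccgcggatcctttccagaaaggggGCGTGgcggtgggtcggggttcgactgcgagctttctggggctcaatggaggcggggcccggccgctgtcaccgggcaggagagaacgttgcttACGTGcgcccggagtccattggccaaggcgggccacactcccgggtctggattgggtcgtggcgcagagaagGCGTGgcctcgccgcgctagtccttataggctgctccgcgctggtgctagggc

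At 12 h against 0 h most glycolytic enzymes rose. All 16 had a log2 change above 0, beside 10514 of the 21071 genes tested, and their median log2 change was 0.19 (all genes -0.00069). In edgeR's quasi-likelihood test, with p-values adjusted over all genes and a threshold of 0.05, 10 of the 16 rose and 0 fell, and 0 were lower at an unadjusted p below 0.05 or by DESeq2. The 10 were GPI, PFKL, PFKP, ALDOC, TPI1, GAPDH, PGK1, PGAM1, ENO1 and PKM, which together cover every step from glucose 6-phosphate to pyruvate. The other 6, HK1, HK2, PFKM, ALDOA, LDHA and LDHB, did not pass, with log2 changes of 0.0042 to 0.14. Over all 38 members 13 rose and 1 fell, where 4.85% of all genes tested rose and 6.75% fell. The values of the 0 h and the 12 h libraries did not overlap for 19 of the 38, beside 36.9% of all genes. Among the 13467 genes with a mean of at least 100 counts, where 36 of the members lie, 7.25% rose, 10.2% fell and 44.3% did not overlap. The changes were small: 0 of the 38 members reached both the adjusted p and a 1.5-fold change, which 1.05% of all genes did, whereas 19 had an unadjusted p below 0.05. DESeq2 likewise called 0. Without 0 h replicate 1, 8 enzymes and 10 members rose, and without the second 0 h library 10 enzymes and 11 members rose. The 1 member that fell became 3 without the second 0 h library and 2 without 12 h replicate 1. The luminal marker list moved with the enzymes, since 6 of its 10 genes rose at 12 h and 8 at 24 h, and its part in the result was not tested. KRT18 was the 1 gene of that list that fell at 24 h (log2 -0.14, adjusted p 0.0212).

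**Figure D2:**
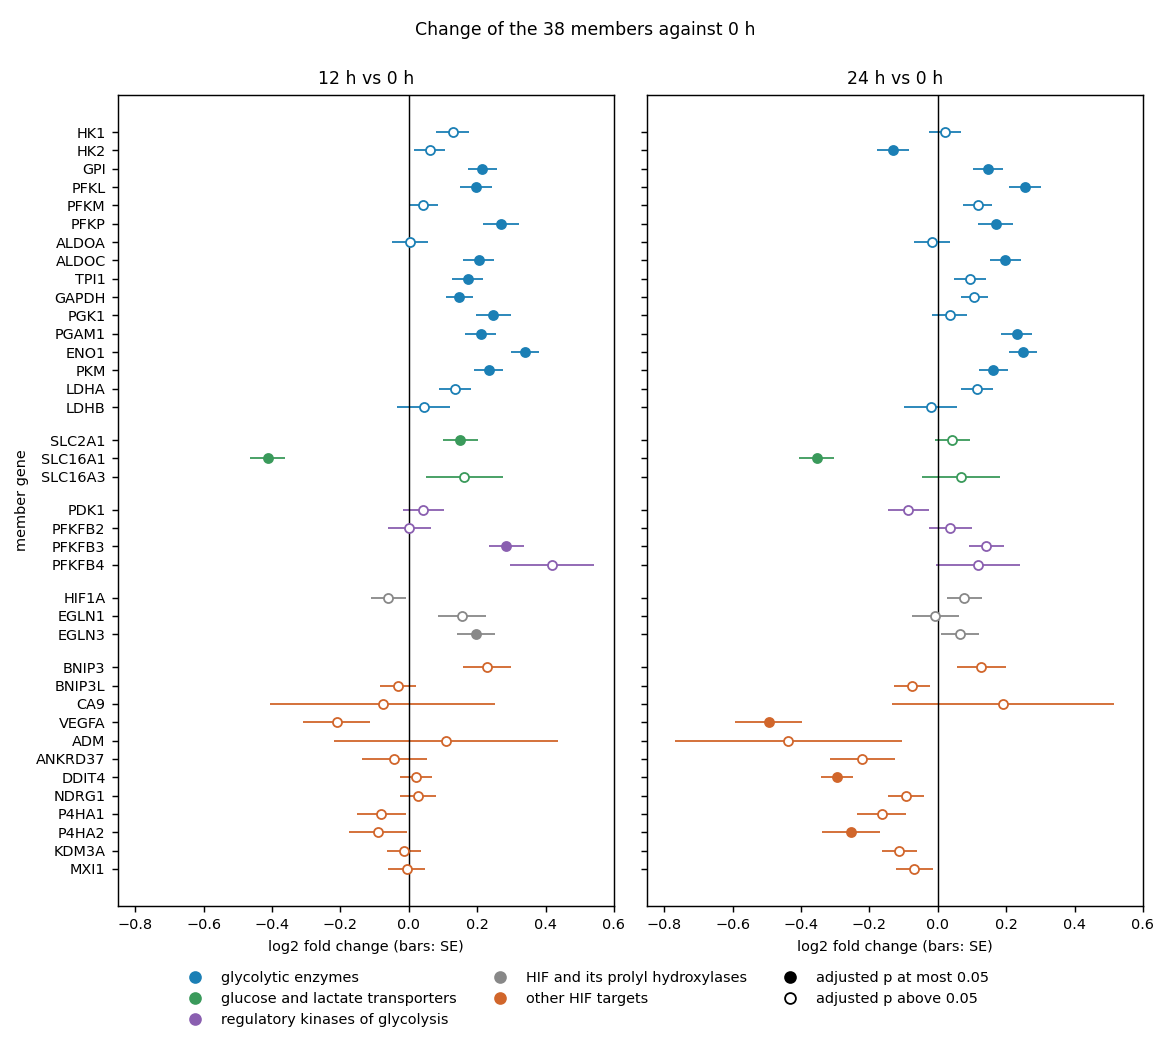
The log2 fold change of each of the 38 members at 12 h (left) and 24 h (right) against 0 h (x axis, bars are SE), grouped by role (y axis), with filled points for an adjusted p of at most 0.05. All 16 enzymes lie above 0 at 12 h, and 10 of the 12 further HIF targets lie below 0 at 24 h.

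ENO1 had the largest change of the enzymes. It read 2978 and 2932 CPM at 0 h, 3801, 3660 and 3756 CPM at 12 h, and 3502, 3368 and 3668 CPM at 24 h. Every later library was above both 0 h libraries. The rise was 1.265-fold at 12 h (log2 0.34, SE 0.041, adjusted p 1.04e-06) and 1.189-fold at 24 h (log2 0.25, SE 0.041, adjusted p 3.59e-05).

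PFKL, the liver-type subunit of phosphofructokinase, stood at 225 and 228 CPM at 0 h, at 272, 245 and 262 CPM at 12 h and at 266, 266 and 279.6 CPM at 24 h. It was the enzyme with the largest log2 change at 24 h (0.26, SE 0.047, 1.193-fold, adjusted p 0.000151), and the groups did not overlap. At 12 h its log2 change was 0.20 (adjusted p 0.00436, or 0.0744 without 0 h replicate 1). The platelet-type subunit PFKP was measured at 263 and 239.7 CPM at 0 h, 318, 281 and 311 CPM at 12 h, and 279.5, 273.5 and 296 CPM at 24 h. PFKP rose by a log2 change of 0.27 at 12 h (SE 0.052, adjusted p 0.000519). Its log2 change of 0.17 at 24 h (adjusted p 0.0205) lost its call without the second 0 h library (log2 0.11, adjusted p 0.262), without 24 h replicate 3 (log2 0.14, adjusted p 0.14) and without 24 h replicate 1 (log2 0.18, adjusted p 0.0516).

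ALDOC, the brain-type aldolase, gave 319.5 and 304 CPM at 0 h, 369.8, 337 and 369.6 CPM at 12 h, and 355, 358 and 359 CPM at 24 h. PGAM1, a phosphoglycerate mutase, gave 537 and 495 CPM at 0 h, 574, 593 and 624.5 CPM at 12 h, and 599, 598 and 620.5 CPM at 24 h. For both genes every 12 h and 24 h library exceeded every 0 h library, and their levels at 12 h and 24 h overlapped. The log2 change at 12 h was 0.20 for ALDOC (SE 0.046, adjusted p 0.0026) and 0.21 for PGAM1 (SE 0.045, adjusted p 0.00182). At 24 h it was 0.20 for ALDOC (adjusted p 0.00218) and 0.23 for PGAM1 (adjusted p 0.000347).

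The remaining enzymes that rose at 12 h had smaller or less lasting changes. GPI (glucose 6-phosphate isomerase) and PKM (pyruvate kinase) rose by log2 changes of 0.22 and 0.23 at 12 h (adjusted p 0.00094 and 0.000296) and by 0.15 and 0.16 at 24 h (adjusted p 0.0167 and 0.0071). At 24 h the call of PKM was lost without 0 h replicate 1 (adjusted p 0.119) or 24 h replicate 3 (0.0658), and that of GPI without 0 h replicate 1 (0.0882), the second 0 h library (0.063), 24 h replicate 1 (0.0558) or 24 h replicate 3 (0.129). TPI1 and GAPDH rose by log2 changes of 0.17 and 0.15 at 12 h (adjusted p 0.0111 and 0.0108). Without 0 h replicate 1 both calls were lost, although the changes were no smaller (log2 0.18, adjusted p 0.0839 for TPI1 and log2 0.15, adjusted p 0.0806 for GAPDH). That of GAPDH was also lost without 12 h replicate 3 (log2 0.13, adjusted p 0.0625). At 24 h neither passed, with log2 changes of 0.094 for TPI1 (adjusted p 0.178) and 0.11 for GAPDH (adjusted p 0.0589). In 6 of 17 other ways of processing, GAPDH did pass at 24 h. GAPDH, often used as a reference transcript, is listed with 33 pseudogenes in the table, which together held 0.129% as many counts as GAPDH.

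LDHA, which turns pyruvate into lactate and so closes the pathway, did not pass. It read 3118 and 2730 CPM at 0 h, 3142, 3211 and 3282 CPM at 12 h, and 3030, 3152 and 3322 CPM at 24 h. Both 0 h libraries were below every 12 h library, but 0 h replicate 1 was nearly as high as the lowest of them. The log2 change at 12 h was 0.14 (95% confidence interval 0.039 to 0.23, adjusted p 0.0594), and it moved to 0.23 without 0 h replicate 1 (adjusted p 0.00705). At 24 h the change was 0.12 (95% confidence interval 0.019 to 0.21, adjusted p 0.0969), and 0.21 without 0 h replicate 1 (adjusted p 0.0072). Over the 17 other ways of processing, the log2 change ranged from 0.0079 to 0.23 at 12 h (adjusted p 0.00705 to 0.954, passing in 9) and from -0.018 to 0.21 at 24 h (adjusted p 0.0072 to 0.877, passing in 2). LDHB, the subunit that favours pyruvate, stayed between 13.1 and 14.8 CPM in all libraries.

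**Figure D3:**
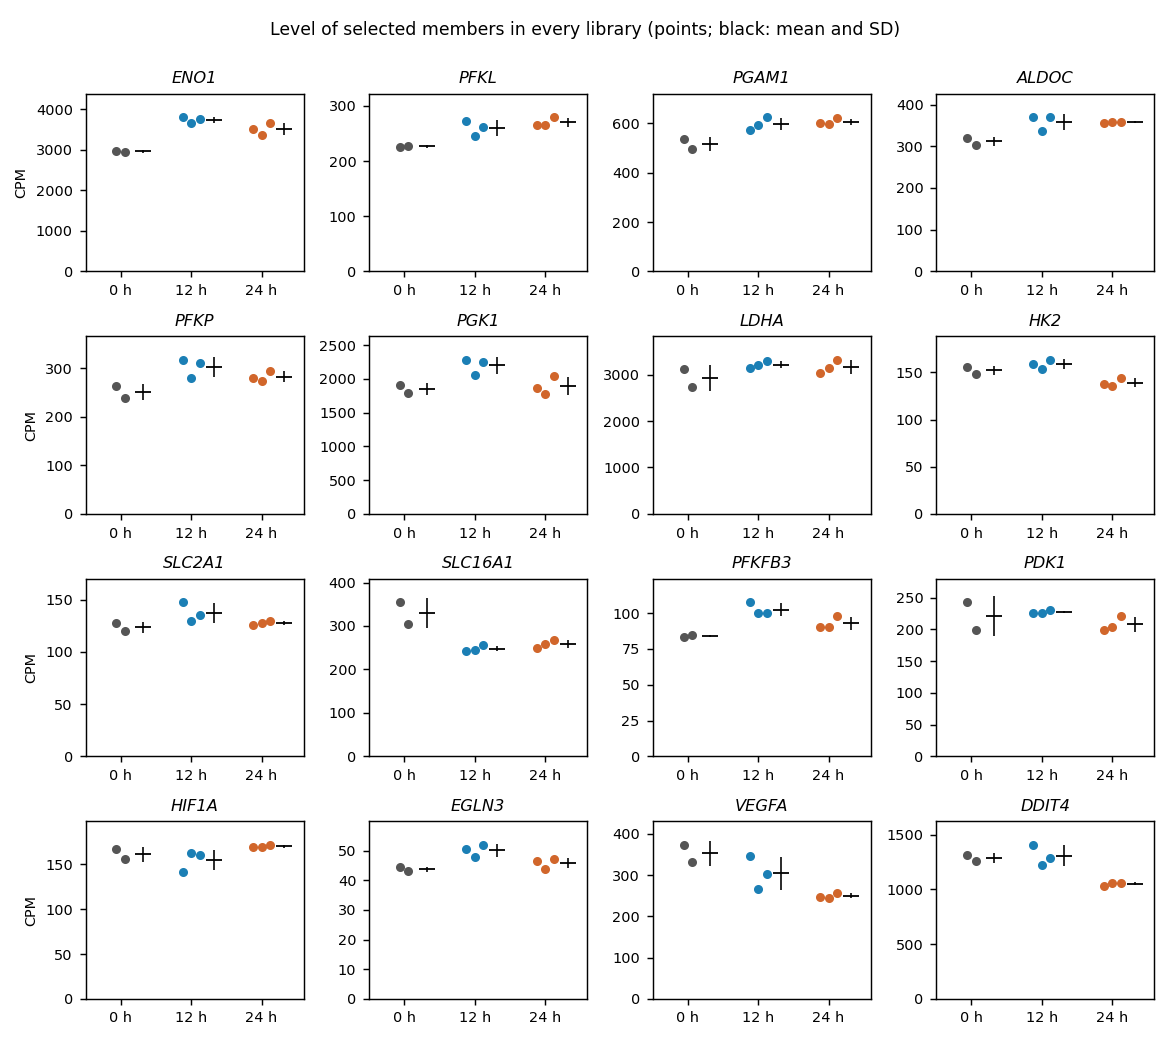
CPM (y axis, from 0) of 16 members in every library (points) by time since ASPN was given (x axis), with the mean and SD of each group in black. ENO1, PFKL, PGAM1 and ALDOC lie above both 0 h libraries at 12 h and 24 h, PGK1 at 24 h overlaps its 0 h level, SLC16A1 is lower at both times, and VEGFA and DDIT4 are lowest at 24 h.

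Of the 3 transporters, SLC16A1 fell at both times, SLC2A1 rose at 12 h by a narrow margin only, and SLC16A3 did not pass. SLC16A1 (MCT1), the carrier that lets lactate and pyruvate cross the cell membrane, was the only member that fell at 12 h. It read 355 and 305 CPM at 0 h, 243, 245 and 255 CPM at 12 h, and 249.6, 258 and 267 CPM at 24 h. All 6 later libraries were below both 0 h libraries. It fell to 0.751-fold at 12 h (log2 -0.41, SE 0.050, adjusted p 9.99e-07) and stood at 0.782-fold at 24 h (log2 -0.35, SE 0.050, adjusted p 3.5e-06). SLC2A1 (GLUT1), the main glucose importer of many tumour cells, read 128 and 120 CPM at 0 h, 148, 129.6 and 135 CPM at 12 h, and 126, 127 and 129 CPM at 24 h. At 12 h it rose just within the threshold (log2 0.15, SE 0.051, adjusted p 0.0499). That call was lost on leaving out any 1 library except 12 h replicate 2, with adjusted p from 0.0647 to 0.235. At 24 h the log2 change of SLC2A1 was 0.042 (95% confidence interval -0.062 to 0.15, adjusted p 0.666). The second lactate carrier, SLC16A3, had log2 changes of 0.16 at 12 h (adjusted p 0.423) and 0.068 at 24 h (adjusted p 0.771), and 5.22% of its exonic bases lie opposite CSNK1D, a gene with far more counts.

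Among the kinases that set the pace of glycolysis, PFKFB3 rose at 12 h. It makes fructose 2,6-bisphosphate, the strongest activator of phosphofructokinase. PFKFB3 read 83.6 and 84.7 CPM at 0 h, 108, 99.8 and 100.1 CPM at 12 h, and 90.5, 90.04 and 98.2 CPM at 24 h. The 3 groups did not overlap, and 24 h lay between the others. The rise was 1.218-fold at 12 h (log2 0.29, SE 0.051, adjusted p 0.000233), and at 24 h the log2 change of 0.14 did not pass (95% confidence interval 0.039 to 0.25, adjusted p 0.0531). In 9 of the 17 other ways of processing, PFKFB3 did pass at 24 h. PFKFB4, an isoenzyme of it, had the largest log2 change of any member at 12 h, 0.42, but its 12 h libraries ranged from 132 to 167 CPM against 98.4 and 118 CPM at 0 h, and the adjusted p was 0.0821 (95% confidence interval 0.13 to 0.71). Without 12 h replicate 1, the highest library, its adjusted p was 0.00346, and it passed in 10 of the 17 other ways of processing (adjusted p 8.97e-09 to 0.237). PFKFB2 had log2 changes of 0.0017 at 12 h and 0.037 at 24 h. PDK1, which shuts pyruvate dehydrogenase and so keeps pyruvate out of mitochondria, read 243 and 198 CPM at 0 h, 226, 226 and 229.7 CPM at 12 h, and 199, 203 and 222 CPM at 24 h. Its groups overlapped at both times, with log2 changes of 0.042 at 12 h (95% confidence interval -0.080 to 0.16, adjusted p 0.742) and -0.086 at 24 h (95% confidence interval -0.21 to 0.036, adjusted p 0.386). Without the second 0 h library PDK1 was lower at 24 h (log2 -0.22, adjusted p 0.00549).

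The HIF1A transcript itself did not pass in any comparison. It read 167.5 and 156 CPM at 0 h, 142, 162 and 160.5 CPM at 12 h, and 169.7, 169.5 and 172 CPM at 24 h. The 24 h libraries lay above all the others. The log2 change was -0.060 at 12 h (95% confidence interval -0.16 to 0.044, adjusted p 0.534), 0.077 at 24 h (95% confidence interval -0.027 to 0.18, adjusted p 0.362) and 0.14 from 12 h to 24 h (95% confidence interval 0.044 to 0.23, adjusted p 0.112). The last value passed without 12 h replicate 2 (adjusted p 0.0405). EGLN3, the hydroxylase gene that HIF itself induces, read 44.4 and 43.2 CPM at 0 h, 50.6, 47.8 and 52.1 CPM at 12 h, and 46.6, 43.8 and 47.2 CPM at 24 h. EGLN3 rose at 12 h (log2 0.20, SE 0.056, adjusted p 0.0182), without overlap. The adjusted p became 0.0958 without 0 h replicate 1, 0.0708 without the second 0 h library and 0.0904 without 12 h replicate 3. At 24 h its log2 change was 0.066 (adjusted p 0.503). EGLN1, the main hydroxylase of HIF1A in most cells, had log2 changes of 0.16 at 12 h (adjusted p 0.158) and -0.0070 at 24 h (adjusted p 0.97), and shares 55.8% of its exonic bases with another gene on its strand.

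The 12 further HIF targets did not share the rise of the enzymes. At 12 h 0 of the 12 passed edgeR's test in either direction, nor by DESeq2 (0), and 1, BNIP3, had an unadjusted p below 0.05. Over 17 other ways of processing, BNIP3 passed on the high side in 12 and VEGFA on the low side in 2. In all, 4 had a log2 change above 0 at 12 h, and the median was -0.023. By 24 h 10 of the 12 had a log2 change below 0 with a median of -0.14 (all genes -0.0031), and 3 fell, namely VEGFA, DDIT4 and P4HA2. No test of the difference between this group and the enzymes was made. The median depended on the 0 h libraries. Without 0 h replicate 1, in which most of these genes were higher, it was 0.079 at 12 h and -0.033 at 24 h, and without the second 0 h library -0.091 and -0.19. Measured against the mean of 0 h, the median of these genes was 0.10 and -0.10 in the 0 h libraries themselves, -0.078 to 0.078 in the 12 h libraries and -0.16 to -0.090 in the 24 h libraries. The value of 24 h replicate 3 (-0.090) thus lay within the spread of the 0 h pair, and those of 24 h replicate 1 (-0.16) and 24 h replicate 2 (-0.13) lay below it. For the enzymes, the same measure was 0.0088 and -0.0088 at 0 h, 0.12 to 0.21 at 12 h and 0.10 to 0.17 at 24 h, outside the spread of the 0 h pair in each library.

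**Figure D4:**
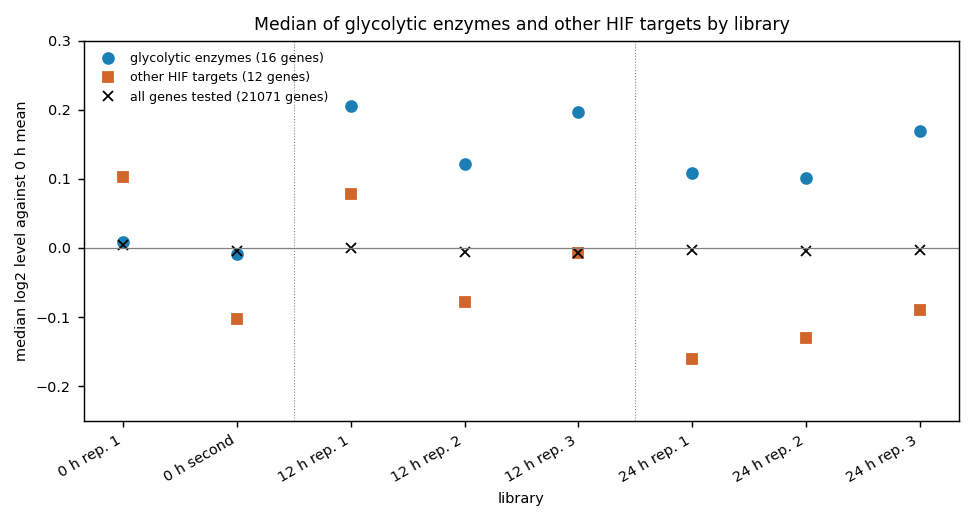
Median log2 level of the 16 enzymes (circles), the 12 further HIF targets (squares) and all 21071 genes tested (crosses) in each library (x axis) against the mean of the 0 h libraries (y axis, log2). The enzymes lie above 0.10 in all 6 later libraries, and the further HIF targets differ by 0.21 between the 0 h libraries and lie between -0.16 and -0.090 at 24 h.

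VEGFA, which codes for the vessel growth factor VEGF-A, had the largest change among the members that passed at 24 h. It read 374 and 331 CPM at 0 h, 346, 266 and 302 CPM at 12 h, and 248, 246 and 257 CPM at 24 h. The 24 h libraries were below all the others, and the 12 h libraries bridged the gap to 0 h. At 24 h it fell to 0.710-fold (log2 -0.49, SE 0.098, adjusted p 0.00871), and without 0 h replicate 1 the adjusted p was 0.121. At 12 h the log2 change was -0.21 (95% confidence interval -0.435 to 0.0133, adjusted p 0.243), and leaving out 12 h replicate 1, the highest, lowered the adjusted p to 0.00039.

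DDIT4 read 1319 and 1259 CPM at 0 h, 1411, 1220 and 1289 CPM at 12 h, and 1036, 1059 and 1057 CPM at 24 h. It did not differ detectably at 12 h (log2 0.020, 95% confidence interval -0.076 to 0.12, adjusted p 0.858) and fell at 24 h to 0.815-fold of 0 h (log2 -0.29, SE 0.047, adjusted p 1.92e-05) and 0.804-fold of 12 h (log2 -0.31, SE 0.042, adjusted p 1.87e-05). All 24 h libraries were below every earlier one. P4HA2, a prolyl hydroxylase of collagen, read 51.7 and 43.2 CPM at 0 h, 51.0, 40.2 and 42.7 CPM at 12 h, and 38.4, 39.4 and 41.7 CPM at 24 h. Its fall at 24 h (log2 -0.26, SE 0.085, adjusted p 0.0479) rested on 0 h replicate 1, without which the log2 change was -0.12 and the adjusted p 0.544, and its call was also lost without 24 h replicate 1 (0.114) or 24 h replicate 2 (0.0915).

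CA9, among the transcripts most strongly induced by low oxygen in many tumours, was scarce in these libraries, with 37 to 69 counts each. It read 0.420 and 0.839 CPM at 0 h, 0.726, 0.606 and 0.447 CPM at 12 h, and 0.648, 0.713 and 0.776 CPM at 24 h. The 0 h libraries enclosed all the others, and the 95% confidence intervals of the log2 change were wide, -0.75 to 0.59 at 12 h and -0.47 to 0.85 at 24 h. ADM, similarly scarce, had a log2 change of -0.44 at 24 h (95% confidence interval -1.12 to 0.24, adjusted p 0.441). At this depth, the counts of CA9 and ADM were compatible with any change within those intervals.

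BNIP3, a receptor for mitophagy, was the 1 further HIF target near the threshold on the high side. Its log2 change at 12 h was 0.23 (95% confidence interval 0.077 to 0.38, adjusted p 0.0508), from 1010 and 823 CPM at 0 h to 1149, 1013 and 1059 CPM at 12 h. The lowest 12 h library lay only just above 0 h replicate 1, and without that 0 h library the log2 change was 0.38. Over 17 other ways of processing the log2 change ranged from 0.099 to 0.38 (adjusted p 5.76e-06 to 0.296, passing in 12). At 24 h the log2 change was 0.13 (adjusted p 0.274), and 0.28 without 0 h replicate 1 (adjusted p 0.00167), with a range over the 17 of -0.0071 to 0.28 (adjusted p 0.00167 to 0.962). The table lists 21 BNIP3 pseudogenes, which held 0.34% as many counts as BNIP3. Its relative BNIP3L had log2 changes of -0.032 and -0.075 at 12 h and 24 h, and the stress-response gene NDRG1 had 0.027 and -0.093. P4HA1, the other collagen prolyl hydroxylase subunit, had -0.081 and -0.16, the histone demethylase KDM3A -0.014 and -0.11, the MYC antagonist MXI1 -0.0064 and -0.068, and ANKRD37 -0.042 and -0.22. None of these 6 passed at either time with all libraries. Leaving out the second 0 h library, which leaves 1 library at 0 h, moved 4 of them lower at 24 h. The log2 changes were then -0.20 for BNIP3L, -0.32 for P4HA1, -0.18 for KDM3A and -0.17 for MXI1. At 12 h they were then -0.15 for BNIP3L and -0.23 for P4HA1. Over the 17 other ways of processing, the 12 h change ranged from -0.16 to 0.11 for BNIP3L and from -0.23 to 0.095 for P4HA1.

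At 24 h against 0 h, over all 38 members, 7 rose and 5 fell, where 7.82% of all genes tested rose and 8.49% fell. All 7 that rose were enzymes (GPI, PFKL, PFKP, ALDOC, PGAM1, ENO1 and PKM). The comparison shares its 0 h libraries with that of 12 h. The 5 that fell were HK2, SLC16A1, VEGFA, DDIT4 and P4HA2. PFKM did not pass (log2 0.12, adjusted p 0.059), but passed on the high side in 7 of 17 other ways of processing. The median log2 change was 0.12 for the enzymes and 0.0395 for all members. For 21 of the 38 the 0 h and 24 h libraries did not overlap, beside 43.2% of all genes, or 52.7% of the 13467 genes with a mean of at least 100 counts, of which 11.5% rose and 12.5% fell. No member reached 1.5-fold with an adjusted p of at most 0.05 (0 of 38, beside 2.45% of all genes), while 20 had an unadjusted p below 0.05, and DESeq2 called 0 as well. The count of 5 that fell depended on the 0 h libraries. With 0 h replicate 1 left out it was 2, with the second 0 h library left out 10, and with 24 h replicate 1 or 24 h replicate 2 left out 3. The count of 7 that rose was 4 without 24 h replicate 3.

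From 12 h to 24 h, a comparison free of the 0 h libraries, 3 of the 38 members passed the test and 35 did not. In all, 31 had a log2 change below 0 (10317 of the 21071 genes tested), 15 showed no overlap (19.6% of all genes, and 24.2% of those with a mean of at least 100 counts), and the median was -0.092 (all genes 0.0035). By group, 13 of 16 enzymes and 11 of 12 further HIF targets had a log2 change below 0, with medians of -0.066 and -0.11. HK2, PGK1 and DDIT4 fell, where 1.61% of all genes did. By edgeR 0 members rose, where 1.12% of all genes did, and by DESeq2 0, with 1 (HIF1A) at an unadjusted p below 0.05. At 1.5-fold 0 of 38 were called (0.18% of all genes) by edgeR and by DESeq2, with 18 at an unadjusted p below 0.05. The number that fell was 1 without 24 h replicate 1 or 24 h replicate 2, and 8 without 12 h replicate 2.

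HK2 and PGK1 were singled out after their values were seen. PGK1, the first enzyme of the pathway to yield ATP, read 1915 and 1791 CPM at 0 h, 2286, 2059 and 2253 CPM at 12 h, and 1864, 1783 and 2046 CPM at 24 h. It rose at 12 h (log2 0.25, SE 0.051, adjusted p 0.00121) and fell from 12 h to 24 h (log2 -0.21, SE 0.045, adjusted p 0.0061), which left a log2 change of 0.034 at 24 h against 0 h (95% confidence interval -0.069 to 0.14). The call was lost without 12 h replicate 1 (adjusted p 0.0597), 24 h replicate 1 (0.061) or 24 h replicate 2 (0.0943). HK2, the inducible hexokinase of tumour cells, read 156 and 149 CPM at 0 h, 159, 153 and 164 CPM at 12 h, and 138, 135 and 144 CPM at 24 h. The 24 h libraries were below all the others. HK2 fell from 12 h to 24 h (log2 -0.19, SE 0.042, adjusted p 0.00699), which was lost without 12 h replicate 3 (adjusted p 0.0756), 24 h replicate 1 (0.0637) or 24 h replicate 2 (0.0807). Against 0 h the fall at 24 h was log2 -0.13 (SE 0.047, adjusted p 0.0493), and it was lost without 0 h replicate 1 (0.324), 12 h replicate 3 (0.0724) or any of the 24 h libraries (0.15 without replicate 1, 0.213 without replicate 2, and just over the threshold without replicate 3).

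The cores searched for in the promoters were found among members that rose, fell or did not pass. Among members with a promoter entry, a match was present in 7 of the 13 that rose at 12 h (53.8%) and in 13 of the 20 that did not pass (65%). All 3 members that fell from 12 h to 24 h, HK2, PGK1 and DDIT4, held 3 matches each. ENO1 held 2, ALDOC 4 and BNIP3 5, whereas PGAM1, PFKP, TPI1, PKM, SLC2A1 and EGLN3, which rose at 12 h, held 0 in this window. For PGAM1, PFKP, TPI1, PKM and EGLN3 the window lies inside the annotated gene, so bases ahead of the outermost start were not searched.

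Neighbouring steps outside the 38 members were described with lists of further pathway genes, whose counts stand beside the same shares of all genes tested, 4.85% that rose and 6.75% that fell at 12 h, and 7.82% that rose and 8.49% that fell at 24 h. Of 21 tested isoenzymes and side-pathway genes of sugar metabolism 5 rose and 3 fell at 12 h, and 4 rose and 4 fell at 24 h. GYS1, which builds glycogen, was at 81.5 ± 2.78 CPM (SD, n = 2) before ASPN, 107 ± 7.95 CPM after 12 h and 99.8 ± 1.07 CPM after 24 h (SD, n = 3). It rose by log2 changes of 0.40 at 12 h (adjusted p 3.77e-06) and 0.29 at 24 h (adjusted p 0.000129). SLC2A12, a further glucose transporter, rose by log2 changes of 0.31 at 12 h (adjusted p 0.0142) and 0.35 at 24 h (adjusted p 0.00345). BPGM, which diverts an intermediate into 2,3-bisphosphoglycerate, fell by 0.27 at 12 h (adjusted p 0.00545) and 0.34 at 24 h (adjusted p 0.000322) on the log2 scale.

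On the path of pyruvate into mitochondria, 2 of 12 tested genes fell at each time and 0 rose by edgeR, by DESeq2 or at an unadjusted p below 0.05. At 24 h these were PDP1, the phosphatase that reactivates pyruvate dehydrogenase (21.8 ± 1.58 CPM at 0 h and 15.4 ± 1.06 CPM at 24 h, log2 -0.50, adjusted p 1.11e-05), and MPC2, a subunit of the mitochondrial pyruvate carrier (208 ± 3.09 CPM and 174 ± 4.29 CPM, log2 -0.26, adjusted p 9.74e-05). PDP1 had also fallen at 12 h (log2 -0.40, adjusted p 0.000524). Of 8 genes of the pentose phosphate pathway, which branches off at glucose 6-phosphate to make NADPH and ribose, 1 fell at 12 h.

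Among 14 tested partners and regulators of HIF, 2 rose at 12 h and 3 at 24 h. By edgeR and by DESeq2 0 fell at either time, with 0 at 12 h and 2 at 24 h at an unadjusted p below 0.05. EPAS1, which codes for the HIF-2 alpha subunit, had log2 changes of 0.091 at 12 h (adjusted p 0.719) and 0.42 at 24 h (adjusted p 0.0118), from 4.47 ± 0.557 CPM at 0 h to 6.00 ± 0.311 CPM at 24 h. CITED4 and CITED2, which compete with HIF for a coactivator, rose at 24 h by log2 changes of 0.35 (adjusted p 0.0124) and 0.17 (adjusted p 0.0157). In a longer list of HIF targets, 7 of 37 tested rose and 2 fell at 12 h, and 6 rose and 9 fell at 24 h. There 3 of the 37 passed both thresholds at 24 h, all lower, beside 2.45% of all genes tested in either direction. ANGPT2, a vessel-destabilising ligand, fell from 8.62 ± 0.673 to 4.34 ± 0.754 CPM (log2 -0.997, adjusted p 3.53e-07). LOX, which crosslinks collagen, fell from 6.57 ± 0.519 to 4.20 ± 0.511 CPM (log2 -0.65, adjusted p 9.5e-05), and TMEM45A, a membrane protein, from 33.9 ± 2.91 to 22.6 ± 1.53 CPM (log2 -0.59, adjusted p 1.27e-07). GYS1 belongs to this list too.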

How the data were processed

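Per the labels and the study's methods, paired-end poly(A) RNA libraries of LNCaP cells were sequenced, and the authors trimmed reads with Cutadapt, aligned them to GRCh38 with STAR and counted them per GENCODE gene with featureCounts. What the authors deposited are raw counts for each gene, not normalized. How strand, read pairs and multi-mapped reads were handled in counting is not given in the sources used here. A 0 h column carrying the number 3, which matches no 0 h label, was used as a 0 h library without a replicate number and is called the second 0 h library. Per the study's methods, cells were plated in triplicate, and a 0 h replicate of LNCaP was left out because it missed the quality threshold. The methods do not give its number. The study's methods name another GENCODE release than release 44, which gave the exon lengths used here for 36397 of the 36474 genes.

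The 38 members and all gene lists were chosen with earlier results of these data known. Counts were fitted with the quasi-likelihood test of edgeR 4.0.16 (glmQLFit and glmQLFTest, robust, TMM, filterByExpr) in R 4.3.3, over all 8 libraries with 1 coefficient per time point, and p-values were Benjamini-Hochberg adjusted over the 21071 genes tested. "Rose" and "fell" mean an adjusted p of at most 0.05, and a call also needs a 1.5-fold change. The SE of a log2 change is the change divided by the square root of its F value. The script was tested on simulated data. Values of every library are printed for HIF1A, VEGFA, CA9, SLC2A1, LDHA and PDK1 and, in each group of members, for up to 5 with the largest log2 change at 24 h against 0 h among those past the threshold in any comparison. From each further list up to 3 genes were named by the same measure, and 1 gene that this rule names is not reported here. Of 0 counts, 3 counts were taken as the limit, 0.0309 to 0.0409 CPM, which covers counting error only. The confidence intervals come from the quasi-likelihood fit and include the spread between libraries. Replicate pairs differed by chi-square values of 5.32 to 15.2 per degree of freedom, where sampling noise gives about 1, so no library was a duplicate. Alternatives comprised RLE and upper-quartile normalization, other filters, DESeq2 1.42.0, fits to the 2 time points compared, a replicate block, protein-coding genes alone, thinned counts and leaving out each library.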

Additional observations from a re-analysis of the deposited data

How the results depend on the processing

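No member reached 1.5-fold with an adjusted p of at most 0.05 under any of the 17 alternatives. The median log2 change of the enzymes kept its sign in each comparison, at 0.166 to 0.215 at 12 h and 0.104 to 0.132 at 24 h against 0 h. Counts of members that rose or fell moved more. Leaving out each library in turn gave 10 to 15 that rose and 1 to 3 that fell at 12 h, 4 to 10 and 2 to 10 at 24 h, and 0 to 1 and 1 to 8 from 12 h to 24 h. The median of the further HIF targets then lay between -0.0911 and 0.0785 at 12 h and between -0.189 and -0.0325 at 24 h. Upper-quartile normalization gave 3 that fell at 24 h, and no filter on low counts gave 2 at 12 h and 5 from 12 h to 24 h. The cause of these shifts was not tested. The replicate block, which drops the second 0 h library, gave 3 that fell at 12 h, 9 at 24 h, and 1 that rose and 8 that fell from 12 h to 24 h, and the adjusted p of PGAM1 became 0.101 at 12 h and 0.0548 at 24 h. No source ties samples of the same number to each other: their deviations from the group means correlated at 0.12, 0.0306 and 0.0264 between 12 h and 24 h, and at -0.179 and -0.118 with 0 h, and not every library correlated best with its own number. Single members changed side of the threshold in 147 cases, 96 towards passing and 51 away from it, and none reversed. Depth limits CA9 and ADM most among the members.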
